A study of Mus musculus with 16 samples.

Results

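The genes described here encode the ephrin receptors (Eph), their ephrin ligands (Efn), the semaphorins (Sema) and the semaphorin receptors, which are the plexins (Plxn) and neuropilins (Nrp). They were picked by gene symbol, with earlier results of these data known, and 53 genes carry such a symbol, of 20972 genes measured on the arrays. Of the 53, 48 were tested, among 15662 genes tested in all. The tested genes were 7 of 9 EphA receptors, 4 of 5 EphB receptors, all 5 ephrin-A and all 3 ephrin-B ligands, 1 of 2 neuropilins, all 9 plexins, 6 of 7 secreted semaphorins and all 13 membrane-bound semaphorins. A gene entered the test when both arrays of 1 group or more detected its probe well above background.

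The samples were mouse embryonic stem cells of the line E14tg2a, cultured on gelatin with serum and the self-renewal cytokine LIF. All of them carried a c-Raf kinase fusion that tamoxifen switches on, and c-Raf feeds the kinase Erk. The DMSO group received vehicle only. The 0h group received 250 nM PD173074, an FGF receptor inhibitor, for 24 hours and was not induced. The other groups received the same inhibitor pretreatment and then 250 nM 4-hydroxytamoxifen (4OHT) for 30m, 1h, 2h, 4h, 8h or 24h, with the inhibitor left in the medium. Each of the 8 groups had 2 replicates, and the 16 arrays lay on 2 slides. By the authors' value table, which is followed here, 1 replicate of every group lay on each slide. The scanner files attached to the samples instead put all arrays of DMSO, 0h, 30m and 1h on 1 slide. They put those of the later times on the other, so that slide and time could not be told apart. The labels disagree for the 4h group, whose description reads minutes where the titles read hours, and the hours were followed here. The time course follows the cells as Erk signalling is switched on. Cells without the fusion given 4OHT, and a vehicle control for 4OHT, were not analysed here. Nothing in the labels tells whether the replicates are separate cultures, and p-values therefore measure only how far these samples spread, possibly for technical reasons.

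Eph receptors are receptor tyrosine kinases that bind ephrins on neighbouring cells. EphA receptors mostly bind the lipid-anchored ephrin-A ligands and EphB receptors the transmembrane ephrin-B ligands, and signals run into both cells, so that cells repel, adhere or sort from each other. Semaphorins signal through plexins, and most of the secreted ones need a neuropilin as co-receptor. Both systems guide growing axons, and they also shape tissue boundaries and cell movements in the early embryo.

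Promoters are shown for the 4 genes with the smallest p in the test for any difference between the 4OHT times and 0h, all of them called higher at 24h than at 0h. Each stretch runs from 250 bases before to 50 bases after the start site, read 5′ to 3′ on the gene's own strand, from RefSeq on GRCm38.p6. Capitals mark a match to the EGR motif GCGNGGGCG on either strand. The Nrp2 promoter lies at chr1:62703067-62703366 on the plus strand, Sema3e at chr5:14025026-14025325 on the plus strand, Epha8 at chr4:136956767-136957066 on the minus strand and Epha1 at chr6:42373219-42373518 on the minus strand.
Nrp2: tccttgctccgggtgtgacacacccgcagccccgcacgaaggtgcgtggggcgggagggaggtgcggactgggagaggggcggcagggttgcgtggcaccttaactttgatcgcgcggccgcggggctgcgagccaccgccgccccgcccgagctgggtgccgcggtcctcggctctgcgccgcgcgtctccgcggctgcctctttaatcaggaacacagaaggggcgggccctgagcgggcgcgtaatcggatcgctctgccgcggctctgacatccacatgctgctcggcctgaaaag
Sema3e: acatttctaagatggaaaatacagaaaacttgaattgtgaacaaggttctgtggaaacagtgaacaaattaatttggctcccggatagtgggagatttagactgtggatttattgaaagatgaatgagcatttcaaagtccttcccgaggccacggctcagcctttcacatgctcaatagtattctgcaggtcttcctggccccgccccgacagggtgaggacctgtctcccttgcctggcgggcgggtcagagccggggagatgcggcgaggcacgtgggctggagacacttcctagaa
Epha8: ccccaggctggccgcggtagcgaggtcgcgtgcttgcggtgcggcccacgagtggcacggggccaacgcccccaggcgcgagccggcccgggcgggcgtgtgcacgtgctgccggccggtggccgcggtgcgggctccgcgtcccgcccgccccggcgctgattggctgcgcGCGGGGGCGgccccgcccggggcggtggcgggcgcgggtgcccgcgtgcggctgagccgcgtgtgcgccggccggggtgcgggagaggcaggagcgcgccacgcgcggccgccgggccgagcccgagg
Epha1: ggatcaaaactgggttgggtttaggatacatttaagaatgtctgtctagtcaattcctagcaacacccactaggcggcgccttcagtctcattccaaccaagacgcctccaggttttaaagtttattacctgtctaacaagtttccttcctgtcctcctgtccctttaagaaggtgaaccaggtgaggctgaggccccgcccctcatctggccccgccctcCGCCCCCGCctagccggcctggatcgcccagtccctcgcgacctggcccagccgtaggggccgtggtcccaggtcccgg

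The EGR match began at position −78 from the start site of Epha8, on the gene's strand, and at −29 from that of Epha1, on the other strand. The Nrp2 and Sema3e stretches held no match to EGR, to the AP-1 motif TGANTCA or to the ETS motif CCGGAAG. All 3 motifs were searched on both strands, and matches of different motifs were counted separately. RefSeq promoters were found for 47 of the 53 genes. EGR was present for 11 of the 47 genes (23.4%), against 6.27% of all 27025 genes with a promoter entry. The median GC content was 64% over the 61 promoters of these genes, against 52.7% over all 32851 promoters, and the part of GC content in the EGR share was not tested. AP-1 was present for 3 of 47 genes, against 8.97% of all genes, and ETS for 2 of 47, against 9.93%. Of the 47, 15 were called in the test for any difference between the 4OHT times and 0h. EGR was present for 4 of these 15, and AP-1 and ETS for 0. A link between motif and call was not tested. A match describes the letters only, and nothing follows from it on binding.

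Signals are log2 values relative to the 75th percentile of each array, so they order samples for 1 gene and do not rank genes against each other. Between 54.9% and 67.2% of spots per array were well above background, and the scaling value of an array was 441 to 653 intensity units. Replicates of a group correlated over genes at 0.982 to 0.990, and the number of arrays limits the precision. Samples were assigned to arrays by the authors' value table, which disagrees with the attachment of the scanner files for 8 arrays, and every result below rests on that assignment. With samples as attached to the scanner files, 1 member was called at 24h vs 0h in place of the 19 given below. A call is an adjusted p under 0.05 in limma's test with Benjamini-Hochberg adjustment over all tested genes. The replicate number, which by the value table is also the slide, was used as a block in a second fit. Calls made only by this second fit are given for many members but not for all. All 8 of 8 stem cell markers, including Pou5f1, Sox2 and Nanog, were well above background on 1 array or more of every group. Egr1, Fos, Spry4 and Dusp6 were taken as a check of the stimulus. Of these 4, only Spry4, an Erk feedback inhibitor, was called at 0h vs DMSO (log2 change −3.39 ± 0.38, SE, limma adjusted p = 0.00346). The 4 changes ranged there from −3.39 to 0.50 (median −0.91), and 3.5% of all genes were called. All 4 were higher at 24h than at 0h (median 3.87), against 23.7% of all genes called. Spry4 rose there by 4.94 ± 0.38 (adjusted p = 5.25e-05).

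The count of called members grew with the time of 4OHT. At 30m, 1h and 2h limma called 0 of 48 members, with 0, 2 and 4 members at an unadjusted p under 0.05. The background shares of all tested genes called were 0%, 0% and 0.115%, and the shares at an unadjusted p under 0.05 were 0.607%, 2.16% and 6.1%. At 4h 4 members were called (2 higher, 2 lower), against a background of 3.18% of all genes (1.44% higher, 1.74% lower). At 8h 9 were called (6 higher, 3 lower), against 6.74% (3.13% and 3.61%). At 24h 19 were called (8 higher, 11 lower), against 23.7% (10.7% and 13%). The moderated F test over all 6 times called 17 of 48 members, 35.4%, against 21.2% of all genes. The median size of the log2 change, sign ignored, was 0.69 over members and 0.34 over all genes at 24h, and 0.51 against 0.25 at 8h. With the replicate block the counts were 2 at 2h, 16 at 4h, 19 at 8h and 24 at 24h, and the F test called 29. The block gave no member at 30m or 1h. It also raised the background shares, to 0.0192% at 1h, 0.485% at 2h, 16% at 4h, 21% at 8h, 39.5% at 24h and 45.7% for the F test. In these bulk samples, fewer cells that express a gene and less RNA per cell cannot be told apart.

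**Figure D1:**
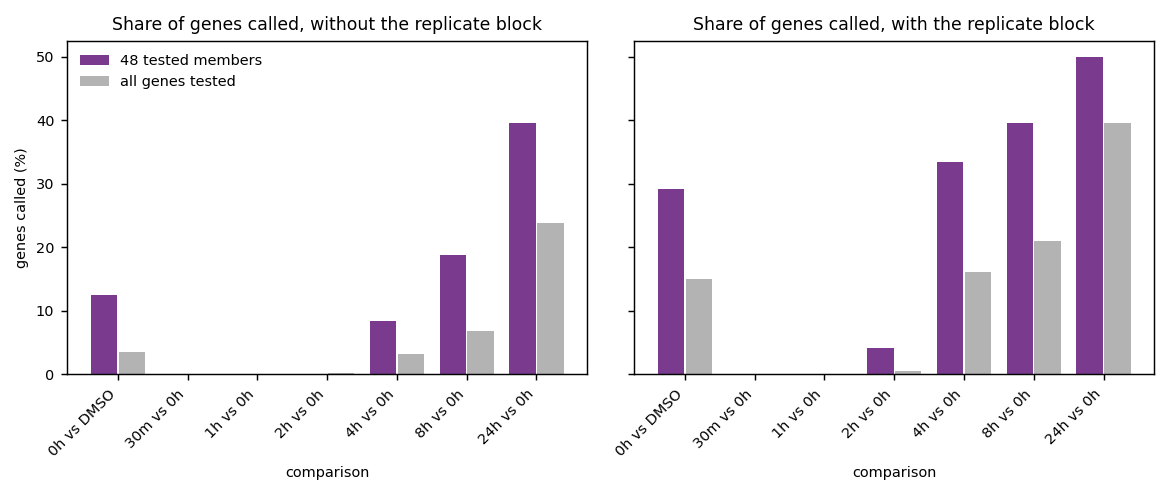
Share of genes called (percent, bars) in each comparison, for the 48 tested members (purple) and all 15662 tested genes (grey), without the replicate block on the left and with it on the right. Bars are 0 at 30m and 1h for the members and reach 39.6% of members against 23.7% of all genes at 24h vs 0h without the block.

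Nrp2, a co-receptor for secreted semaphorins and for vascular endothelial growth factors, showed the largest rise among the members, about 20-fold at 8h and 24h of 4OHT. Its signal was 1.52 and 1.65 in DMSO, 1.78 and 1.32 at 0h, 1.89 and 1.33 at 30m, 1.67 and 1.52 at 1h, 2.38 and 1.83 at 2h, 4.77 and 4.05 at 4h, 6.57 and 5.38 at 8h, and 6.37 and 5.46 at 24h. All arrays from 4h on lay above all arrays up to 2h, with no overlap. The change was 2.86 ± 0.43 at 4h (SE, limma adjusted p = 0.013), 4.43 ± 0.43 at 8h (21.5-fold, adjusted p = 0.000692) and 4.37 ± 0.43 at 24h (20.6-fold, adjusted p = 0.000172). At 24h Nrp2 also exceeded DMSO, by 4.33 ± 0.43 (20.2-fold, adjusted p = 0.000522). A second Nrp2 probe gave 4.50 at 4h, 5.33 at 8h and 4.49 at 24h against 0h. The 8h and 24h calls held without any 1 array, while the 4h call was lost without 0h replicate 1, 4h replicate 1 or 0h replicate 2, with changes of 2.51 to 3.22. The related co-receptor Nrp1 was below the detection criterion on all arrays.

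**Figure D2:**
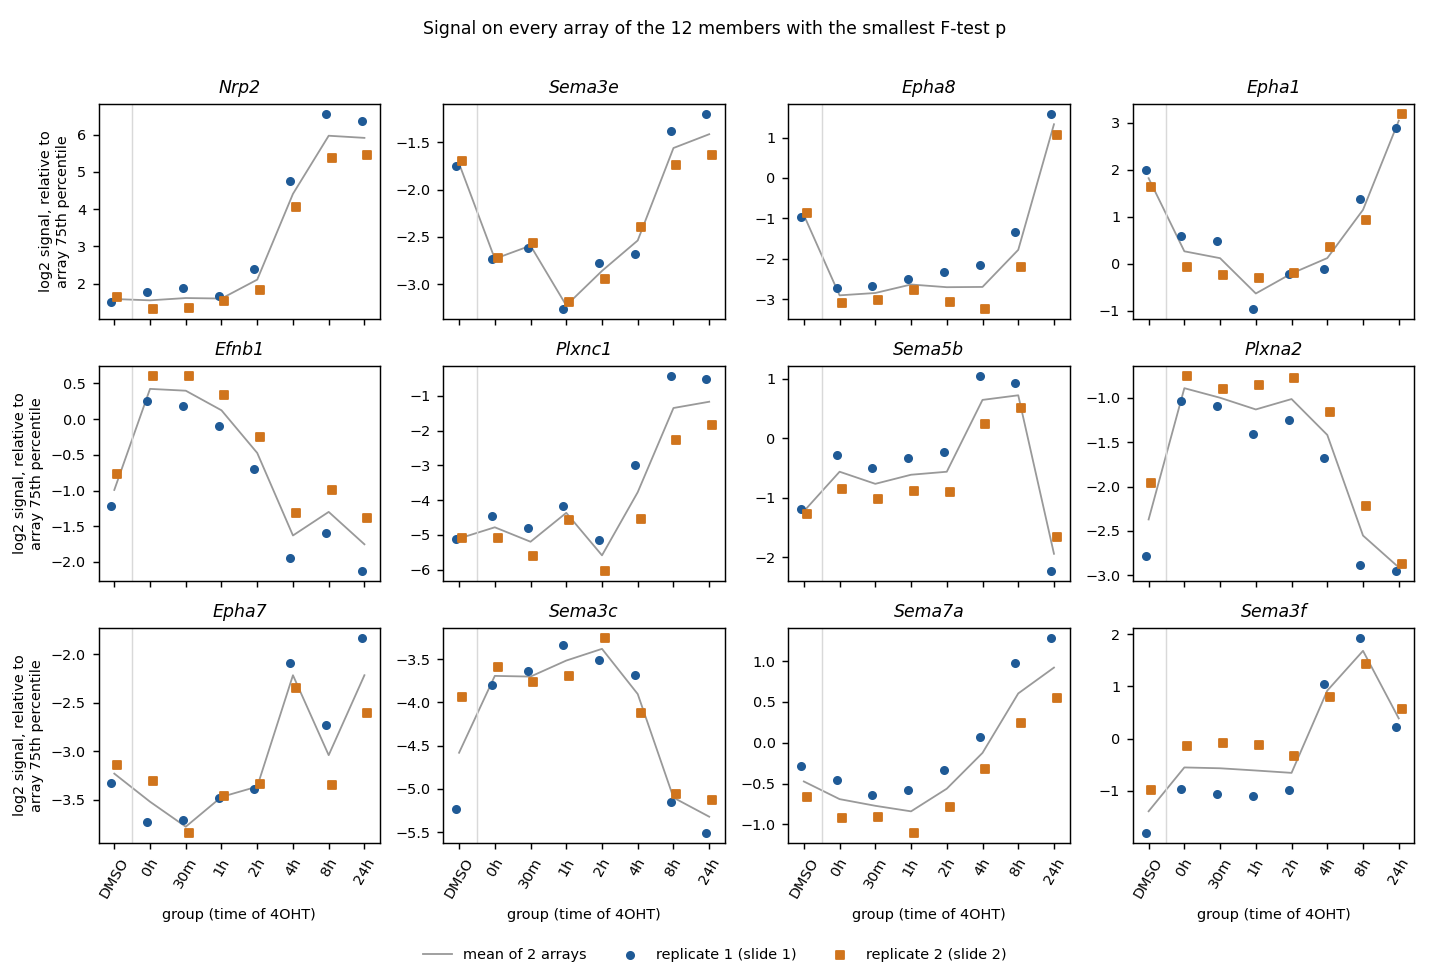
Log2 signal relative to the array's 75th percentile (vertical axes, which differ between panels) on each of the 16 arrays, by group, for the 12 members with the smallest F-test p. Blue circles are replicate 1 (slide 1), orange squares replicate 2 (slide 2) and lines group means; Nrp2 lies between 1.32 and 2.38 up to 2h and between 4.05 and 6.57 from 4h on.

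Plxnc1, the plexin that binds the lipid-anchored semaphorin Sema7a, rose at the late times together with Sema7a. Plxnc1 was −5.11 and −5.10 in DMSO, −4.47 and −5.10 at 0h, −4.80 and −5.60 at 30m, −4.16 and −4.58 at 1h, −5.14 and −6.04 at 2h, −3.00 and −4.54 at 4h, −0.42 and −2.29 at 8h, and −0.51 and −1.83 at 24h. It was well above background on 8 of 16 arrays, which included both arrays at 4h, 8h and 24h, and the 8h and 24h arrays lay above all others. Of the 0h arrays only 1 of 2 was above background, so the sizes of the changes against 0h rest partly on a signal below it. These were 3.43 ± 0.69 at 8h (SE, limma adjusted p = 0.0204) and 3.61 ± 0.69 at 24h (adjusted p = 0.00441). With normexp background correction they were 1.88 and 2.02. Against DMSO, where neither array was above background, the signal at 24h was at least 13.4-fold higher (adjusted p = 0.00706). The bright group's mean was set there against the higher of the dimmest signal among spots well above background and the probe's own signal on each DMSO array. A second Plxnc1 probe was above background on 5 arrays. The 24h call held without any 1 array (2.95 to 4.27). The 8h call was lost without 0h replicate 1, 8h replicate 1 or 0h replicate 2 (2.50 to 4.36), and the call against DMSO without DMSO replicate 1 or 24h replicate 1.

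Sema7a itself was −0.28 and −0.67 in DMSO, −0.46 and −0.92 at 0h, −0.64 and −0.91 at 30m, −0.58 and −1.11 at 1h, −0.33 and −0.79 at 2h, 0.07 and −0.32 at 4h, 0.97 and 0.24 at 8h, and 1.29 and 0.55 at 24h. On each slide the highest values were those at 8h and 24h. Sema7a rose by 1.30 ± 0.34 at 8h (SE, limma adjusted p = 0.0497) and by 1.61 ± 0.34 at 24h (adjusted p = 0.00693), and it was 1.40 ± 0.34 above DMSO at 24h (adjusted p = 0.0263). With the block the 4h change of 0.57 was also called (adjusted p = 0.0177). The 8h call was lost without 0h replicate 1, 8h replicate 1 or 0h replicate 2 (0.93 to 1.66), the 24h call without 24h replicate 1 or 0h replicate 2 (1.24 to 1.98), and the call against DMSO without DMSO replicate 1, 24h replicate 1 or DMSO replicate 2 (1.03 to 1.76).

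Plxna2, a plexin that binds transmembrane semaphorins such as Sema6a, moved the other way and was lower at 8h and 24h than at 0h. It was −2.79 and −1.96 in DMSO, −1.03 and −0.75 at 0h, −1.10 and −0.90 at 30m, −1.41 and −0.85 at 1h, −1.25 and −0.77 at 2h, −1.68 and −1.16 at 4h, −2.89 and −2.22 at 8h, and −2.95 and −2.87 at 24h. The 8h, 24h and DMSO arrays lay below all others. The change was −1.66 ± 0.33 at 8h (SE, limma adjusted p = 0.0193) and −2.02 ± 0.33 at 24h (adjusted p = 0.00201), and 0h was 1.48 ± 0.33 above DMSO (adjusted p = 0.0402). The 24h call held without any 1 array (−2.17 to −1.88). The 8h call was lost without 0h replicate 1, 8h replicate 1 or 0h replicate 2 (−2.00 to −1.33), and the 0h vs DMSO call without DMSO replicate 1, 0h replicate 1 or 0h replicate 2 (1.07 to 1.90). For this and every other gene the 0h vs DMSO comparison and the time comparisons share the 0h arrays. Opposite changes in them are therefore not independent. With the block Plxna2 was also lower at 8h than at 4h (−1.14, adjusted p = 0.00688) and lower at 24h than in DMSO (−0.54, adjusted p = 0.0429).

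No other plexin was called by its brightest probe without the block. Plxnb1 ranged from −1.31 to −0.48 over the 16 arrays (median −0.95), Plxna1 from −0.12 to 0.89 (median 0.34) and Plxnb2 from 3.33 to 3.83 (median 3.63). Their changes at 24h vs 0h were 0.10 ± 0.34, 0.09 ± 0.32 and −0.31 ± 0.15 (SE). For Plxnd1, the receptor of Sema3e, the 2 probes disagreed: the brighter gave 0.37 ± 0.29 at 24h, and the other gave 1.12 (limma adjusted p = 0.0118). Plxna4 was above background on 7 arrays and changed by 0.53 ± 0.53, and Plxna3 changed by 0.29 ± 0.25. Plxnb3 changed by 0.50 ± 0.63 at 24h vs 0h, and with the block it was called at 24h vs 8h (0.97, adjusted p = 0.0236).

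Among the EphA receptors, Epha8 and Epha1 were lower at 0h, under the FGF receptor inhibitor, than in DMSO, and higher after 24h of 4OHT than at 0h. The 2 comparisons share the 0h arrays and are not independent. Epha8 was −0.97 and −0.86 in DMSO, −2.72 and −3.09 at 0h, −2.68 and −3.02 at 30m, −2.50 and −2.77 at 1h, −2.34 and −3.07 at 2h, −2.15 and −3.24 at 4h, −1.35 and −2.21 at 8h, and 1.59 and 1.07 at 24h. Only the 24h arrays of Epha8 lay above the DMSO arrays. The change at 0h vs DMSO was −1.99 ± 0.40 (SE, limma adjusted p = 0.0281). At 24h it was 4.24 ± 0.40 above 0h (18.8-fold, adjusted p = 0.000149), 3.11 ± 0.40 above 8h (adjusted p = 0.002) and 2.25 ± 0.40 above DMSO (adjusted p = 0.00738). With the block the 8h change of 1.13 against 0h was also called (adjusted p = 0.0129), as was that of 0.92 against 4h (adjusted p = 0.0493). The calls of 24h against 0h (3.97 to 4.50) and against 8h (2.68 to 3.54) held without any 1 array. The 0h vs DMSO call was lost without each of its 4 arrays (−2.18 to −1.80), and the call against DMSO without DMSO replicate 1 or 24h replicate 1 (1.98 to 2.51).

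Epha1 was 2.00 and 1.63 in DMSO, 0.59 and −0.06 at 0h, 0.48 and −0.24 at 30m, −0.96 and −0.30 at 1h, −0.22 and −0.19 at 2h, −0.11 and 0.35 at 4h, 1.37 and 0.93 at 8h, and 2.89 and 3.19 at 24h. Its lowest array was at 1h and its highest 2 arrays were at 24h. The change at 0h vs DMSO was −1.55 ± 0.33 (SE, limma adjusted p = 0.0327). At 24h it was 2.77 ± 0.33 above 0h (6.83-fold, adjusted p = 0.000416), 1.89 ± 0.33 above 8h (adjusted p = 0.00715) and 1.22 ± 0.33 above DMSO (adjusted p = 0.0391). The calls of 24h against 0h (2.45 to 3.10) and against 8h (1.67 to 2.11) held without any 1 array. The 0h vs DMSO call (−1.88 to −1.23) and the 24h vs DMSO call (1.04 to 1.40) were each lost without each of their 4 arrays.

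Epha7 was −3.32 and −3.14 in DMSO, −3.73 and −3.31 at 0h, −3.71 and −3.84 at 30m, −3.48 and −3.46 at 1h, −3.39 and −3.34 at 2h, −2.09 and −2.34 at 4h, −2.73 and −3.35 at 8h, and −1.83 and −2.60 at 24h. The 4h and 24h arrays lay above all arrays of the earlier groups, and the 8h arrays lay lower, 1 of them within the range of those earlier groups. The change was 1.30 ± 0.27 at 4h (SE, limma adjusted p = 0.033) and 1.30 ± 0.27 at 24h (adjusted p = 0.00621), and 24h exceeded DMSO by 1.01 ± 0.27 (adjusted p = 0.0373). The Epha7 probes disagreed, since a second probe, above background on 13 arrays, gave 0.28 at 4h (adjusted p = 0.672) and 0.01 at 24h (adjusted p = 0.99). The 4h call was lost without each of its 4 arrays (1.09 to 1.51), the 24h call without 0h replicate 1 or 24h replicate 1 (0.91 to 1.69), and the call against DMSO without DMSO replicate 1, 24h replicate 1 or DMSO replicate 2 (0.63 to 1.40). Of 8 other settings 5 ended the 4h call, 1 the 24h call and 6 the call against DMSO. With the mean over its probes the Epha7 changes were 0.63, 0.63 and 0.42.

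Epha4, a receptor for ephrins of both classes, averaged −0.97 at 24h, against 0.31 at 0h, a change of −1.28 ± 0.39 (SE, limma adjusted p = 0.0392). Ephb4, the receptor of Efnb2, averaged 0.71 at 24h, against 2.14 at 0h, a change of −1.43 ± 0.44 (adjusted p = 0.0384), and its second probe gave −0.97 (adjusted p = 0.0428). Both calls were lost without each of their 4 arrays, with changes of −1.54 to −1.02 for Epha4 and −1.78 to −1.08 for Ephb4. Epha2, a receptor of Efna1, was called with the block only, at 2h (1.29, adjusted p = 0.0277 with the block), 4h (1.17, adjusted p = 0.00679), 8h (1.21, adjusted p = 0.00383) and 24h (0.82, adjusted p = 0.00862). Its values within slide 1 were 5.54 at 2h, against 3.98 at 0h, and within slide 2 they were 4.27 and 3.25, so both slides held the same direction. Ephb6, which lacks kinase activity, was likewise called with the block only, at 24h by −0.41 (adjusted p = 0.0256). Ephb3 ranged from 6.38 to 6.79 over the 16 arrays (median 6.55) and Epha5 from 5.02 to 5.68 (median 5.32). Their 24h vs 0h changes were −0.08 ± 0.15 and −0.15 ± 0.26, neither called. Epha3 and Epha6 were below the detection criterion on all arrays, and Ephb1 was detected on 1 array.

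Among the ephrin ligands, 4 of 8 were lower and 1 was higher at 24h than at 0h, where 13% of all genes were lower and 10.7% higher. With the block 5 were lower and 2 higher, where 39.5% of all genes were called in either direction. Efnb1, a transmembrane ligand of EphB receptors, was −1.21 and −0.77 in DMSO, 0.25 and 0.60 at 0h, 0.19 and 0.61 at 30m, −0.09 and 0.34 at 1h, −0.70 and −0.24 at 2h, −1.94 and −1.32 at 4h, −1.60 and −1.00 at 8h, and −2.13 and −1.38 at 24h. Every array at 4h, 8h and 24h lay below every array from 0h to 2h. Efnb1 fell by 2.05 at 4h (−2.05 ± 0.34, SE, limma adjusted p = 0.0186), by 1.72 at 8h (adjusted p = 0.0192) and by 2.18 at 24h (4.52-fold, adjusted p = 0.00161). With the block it was also lower at 2h (−0.90, adjusted p = 0.00922) and higher at 0h than in DMSO (1.42, adjusted p = 0.00017, against 0.0532 without the block). The 24h call held without any 1 array (−2.55 to −1.80). The 4h call was lost without 0h replicate 1, 4h replicate 1 or 0h replicate 2 (−2.36 to −1.74), and the 8h call without 0h replicate 1, 8h replicate 1 or 0h replicate 2 (−2.02 to −1.42).

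Efna2 and Efna4, both lipid-anchored ligands of EphA receptors, were called lower at 24h, and with the block also at 8h. With the block 3 ephrin-A ligands were lower at 8h, these and Efna1, against 21% of all genes called. At 4h the block gave 2 ephrin-A and 2 ephrin-B ligands lower, against 16% of all genes called. Efna2 was −2.19 and −2.57 at 24h, −1.58 and −1.45 at 0h, and −2.57 and −2.62 in DMSO. Its change was −0.87 ± 0.18 at 24h vs 0h (SE, limma adjusted p = 0.0058), which held without any 1 array (−1.06 to −0.68). At 0h it was 1.08 ± 0.18 above DMSO (adjusted p = 0.013), a call lost without each of its 4 arrays (1.01 to 1.15). With normexp background correction the Efna2 changes were −0.53 and 0.56, both called. Efna4 changed by −1.27 ± 0.28 at 24h (adjusted p = 0.00901), a call lost without 24h replicate 1 or 0h replicate 2 (−1.47 to −1.07). Efnb3, a transmembrane ligand, changed by −0.78 ± 0.23 (adjusted p = 0.0326), a call lost without 0h replicate 1, 24h replicate 1 or 0h replicate 2 (−0.95 to −0.61). Efna5 was the ligand called higher without the block, by 1.30 ± 0.38 against 0h (adjusted p = 0.0335) and 1.47 ± 0.38 against DMSO (adjusted p = 0.0357). These Efna5 calls were lost without 24h replicate 1 or 0h replicate 2 (0.90 to 1.69), and without DMSO replicate 1, 24h replicate 1 or DMSO replicate 2 (1.09 to 1.85).

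Efna1 and Efnb2 were called with the block only. Efna1 read −2.98 and −2.63 at 24h, against −1.79 and −0.95 at 0h, and its changes were −1.45 at 4h, −1.52 at 8h and −1.43 at 24h (limma adjusted p = 0.0328, 0.0226 and 0.0148 with the block). Efnb2 read −0.11 and −0.68 at 24h, against −1.11 and −2.04 at 0h, a change of 1.18 (adjusted p = 0.00184 with the block, 0.125 without). Efnb2 was also lower at 0h than in DMSO by the blocked fit (−1.61, adjusted p = 0.00169). For both genes the 2 arrays at 24h and the 2 at 0h did not overlap, as for 36 of the 48 tested members. The share over all genes was not computed, so the lack of overlap adds no support to these calls. Efna3 was not called, with 0.03 ± 0.18 at 24h by its brightest probe and −0.64 by a second (adjusted p = 0.123).

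**Figure D3:**
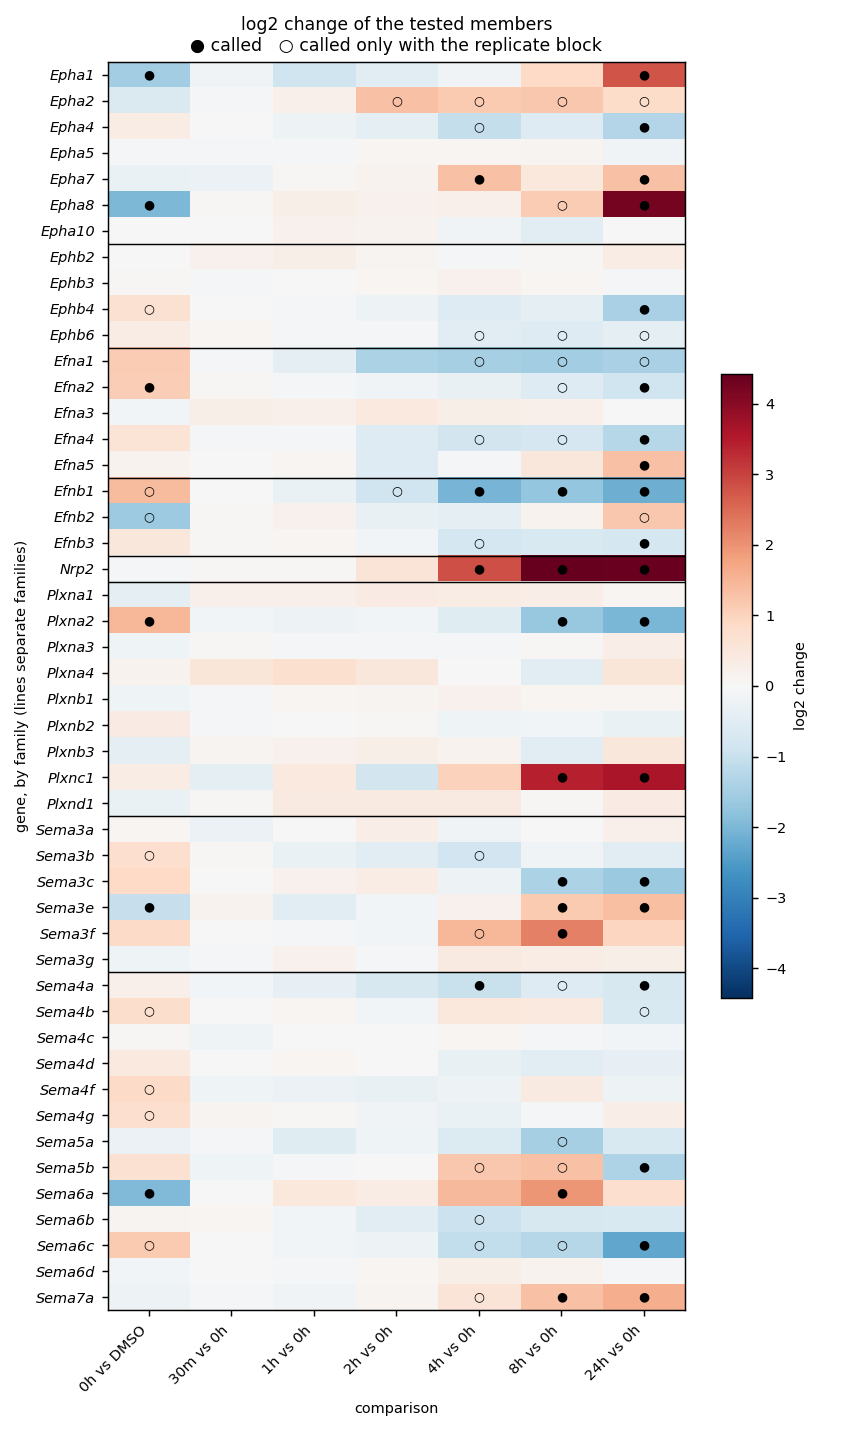
Log2 change (colour, red higher and blue lower) of the 48 tested members in each comparison, with families separated by lines. Filled circles mark calls and open circles calls made only with the replicate block; 24h vs 0h has 19 filled circles and 30m and 1h have none.

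Sema3e and Sema3f, secreted semaphorins, rose after 8h of 4OHT, while Sema3c fell. Sema3e, which binds Plxnd1 directly, was −1.75 and −1.70 in DMSO, −2.74 and −2.73 at 0h, −2.62 and −2.57 at 30m, −3.26 and −3.19 at 1h, −2.78 and −2.94 at 2h, −2.68 and −2.40 at 4h, −1.38 and −1.74 at 8h, and −1.20 and −1.63 at 24h. The DMSO, 8h and 24h arrays lay above all the others. The change was 1.17 ± 0.17 at 8h (SE, limma adjusted p = 0.00597) and 1.32 ± 0.17 at 24h (adjusted p = 0.000671), and 0h was lower than DMSO (−1.01 ± 0.17, adjusted p = 0.0169). Sema3e also rose between 4h and 8h, by 0.98 ± 0.17 (adjusted p = 0.0324), the only member called in that step, against 1.12% of all genes (0.804% higher). With the block 7 members were called between 4h and 8h, against 8.5% of all genes. The 24h call held without any 1 array (1.10 to 1.54), the 8h call was lost without 8h replicate 1 (0.99 to 1.36), the 0h vs DMSO call without each of its arrays (−1.03 to −0.99), and the 8h vs 4h call without 4h replicate 1, 8h replicate 1 or 4h replicate 2 (0.79 to 1.16).

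Sema3f, a ligand with a preference for Nrp2, was −1.81 and −0.98 in DMSO, −0.97 and −0.13 at 0h, −1.05 and −0.08 at 30m, −1.09 and −0.13 at 1h, −0.98 and −0.34 at 2h, 1.05 and 0.79 at 4h, 1.93 and 1.43 at 8h, and 0.22 and 0.56 at 24h. Its peak was at 8h, and the 4h, 8h and 24h arrays lay above all others. The change was 2.23 ± 0.46 at 8h (SE, limma adjusted p = 0.0212) and 0.94 ± 0.46 at 24h (adjusted p = 0.177), and 24h exceeded DMSO by 1.78 ± 0.46 (adjusted p = 0.0337). With the block the 4h change of 1.47 was also called (adjusted p = 0.0259), as was that of −1.29 at 24h vs 8h (adjusted p = 0.0299). The 8h call was lost without 0h replicate 1 or 8h replicate 1 (1.81 to 2.65), and the call against DMSO without DMSO replicate 1, 24h replicate 1 or 24h replicate 2 (1.36 to 2.19).

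Sema3c, which signals through neuropilins, was −5.23 and −3.94 in DMSO, −3.79 and −3.59 at 0h, −3.63 and −3.77 at 30m, −3.34 and −3.69 at 1h, −3.51 and −3.25 at 2h, −3.68 and −4.12 at 4h, −5.15 and −5.05 at 8h, and −5.51 and −5.13 at 24h. Both arrays at 8h and at 24h were below background, so only bounds can be given: at least 2.41-fold lower at 8h (limma adjusted p = 0.0397) and at least 1.86-fold lower at 24h (adjusted p = 0.00727). The 8h call was lost without each of its 4 arrays, and the 24h call without 24h replicate 1. Of 8 other settings 4 ended the 8h call (normexp background, no filter on dim probes, the mean over a gene's probes, and a fit of only the groups compared), and 2 ended the 24h call (normexp and the mean over probes). Sema3b, Sema3g and Sema3a were not called at any time in the fit without the block, and Sema3d was below the detection criterion on all arrays.

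Among the membrane-bound semaphorins, Sema5b, which carries thrombospondin-type repeats, was high at 4h and 8h and lowest at 24h. It was −1.19 and −1.27 in DMSO, −0.28 and −0.85 at 0h, −0.51 and −1.03 at 30m, −0.34 and −0.89 at 1h, −0.23 and −0.90 at 2h, 1.05 and 0.23 at 4h, 0.93 and 0.51 at 8h, and −2.23 and −1.65 at 24h. All 4 arrays at 4h and 8h lay above all others, and both at 24h lay below all others. The change at 24h was −1.38 ± 0.36 against 0h (SE, limma adjusted p = 0.0205) and −2.66 ± 0.36 against 8h (adjusted p = 0.00248). With the block the rises at 4h (1.21, adjusted p = 0.0219) and 8h (1.28, adjusted p = 0.0135) were called too. A second Sema5b probe gave 1.25 at 4h, 1.46 at 8h and −1.50 at 24h. The 24h vs 8h call held without any 1 array (−2.95 to −2.38), and the 24h vs 0h call was lost without 0h replicate 1 or 24h replicate 1 (−1.67 to −1.09).

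Sema4a, a transmembrane semaphorin with roles in immune cells, was 0.99 and 1.45 at 4h and 1.29 and 1.71 at 24h, against 2.26 and 2.14 at 0h. The changes were −0.98 ± 0.20 at 4h (SE, limma adjusted p = 0.0341) and −0.70 ± 0.20 at 24h (adjusted p = 0.0307). The 4h call was lost without 0h replicate 1, 4h replicate 1 or 0h replicate 2 (−1.21 to −0.75), and the 24h call without 0h replicate 1, 24h replicate 1 or 0h replicate 2 (−0.92 to −0.49). Sema6c changed by −2.30 ± 0.55 at 24h, the largest fall among the members, with group means of −0.03 at 24h and 2.27 at 0h (adjusted p = 0.0126). Its second probe gave a smaller −0.69 (adjusted p = 0.0191), and the call was lost without 24h replicate 1 or 0h replicate 2 (−2.77 to −1.83).

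Sema6a, a ligand of Plxna2, was −0.73 and −2.26 at 8h and −3.42 and −3.46 at 0h, against −1.56 and −1.41 in DMSO. At 0h it was below DMSO (−1.96 ± 0.46, SE, limma adjusted p = 0.049), a call lost without each of its 4 arrays (−2.03 to −1.88). It rose by 1.94 ± 0.46 at 8h (adjusted p = 0.0357), a call lost without 0h replicate 1, 8h replicate 1 or 0h replicate 2 (1.18 to 2.71), and its 8h replicates differed widely. Sema4b changed by −1.10 ± 0.22 at 24h vs 8h (adjusted p = 0.0142), a call lost without 8h replicate 1, 24h replicate 1 or 24h replicate 2 (−1.27 to −0.93). Sema4g exceeded DMSO by 1.04 ± 0.19 at 24h (adjusted p = 0.00781), a call lost without 24h replicate 1 (0.78 to 1.30). Sema4c ranged from 6.86 to 7.21 over the 16 arrays (median 7.02) and Sema6d from 2.94 to 3.95 (median 3.40), with 24h vs 0h changes of −0.12 ± 0.14 and −0.07 ± 0.43. 

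Further changes of the semaphorins and Eph receptors passed the test with the block only. Sema6c was higher at 0h than in DMSO (1.17, limma adjusted p = 0.026 with the block) and lower at 4h than at 0h (−1.11, 0.0319) and at 8h (−1.27, 0.0156). Sema3b followed the same order, with 0.73 at 0h vs DMSO (0.023) and −0.84 at 4h vs 0h (0.0145). For both genes these changes share the 0h arrays. Sema4b (0.78, 0.0427), Sema4f (0.86, 0.0292) and Sema4g (0.74, 0.0196) were higher at 0h than in DMSO. Sema6b changed by −0.96 at 4h (0.031), and Sema5a, detected on 9 arrays, was at least 1.80-fold lower at 8h (0.0159). Epha4 was lower at 4h (−1.04, 0.00935), and Ephb4 was higher at 0h than in DMSO (0.68, 0.0402). Over all families, 25 of 48 members were called in no comparison without the block. The 16 called in none with or without it were Epha5, Epha10, Ephb2, Ephb3, Efna3, Plxna1, Plxna3, Plxna4, Plxnb1, Plxnb2, Plxnd1, Sema3a, Sema3g, Sema4c, Sema4d and Sema6d, with 24h vs 0h changes of −0.37 to 0.53 (SE 0.14 to 0.77). Besides Epha7 and Sema3c, some calls ended under 3 to 5 of the 8 other settings. These were Epha1, Epha8 and Sema6a at 0h vs DMSO, Sema4a at 4h, Sema6a and Sema7a at 8h, Ephb4 and Sema4a at 24h vs 0h, Sema3e at 8h vs 4h, and Efna5, Epha1 and Sema4g at 24h vs DMSO.

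**Figure D4:**
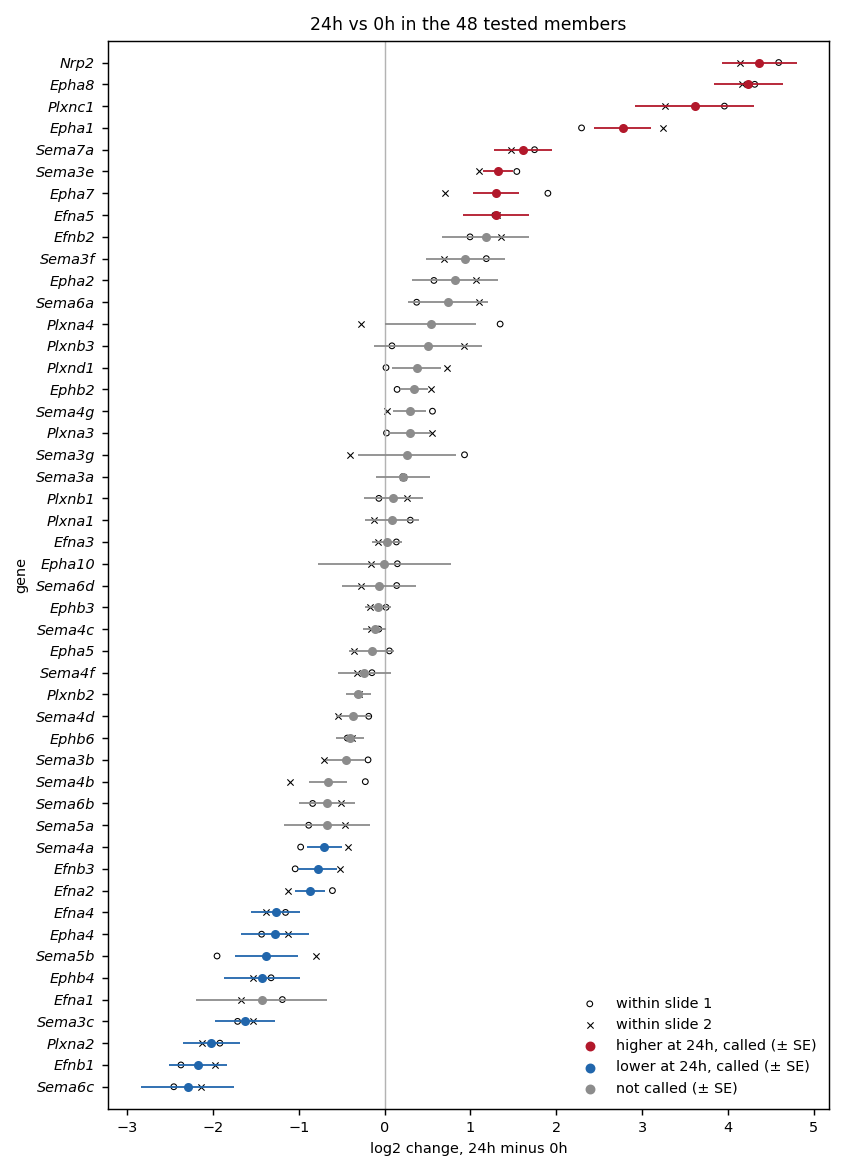
Log2 change at 24h minus 0h for the 48 tested members (filled points ± SE), with the difference within each slide as open circles (slide 1) and crosses (slide 2). Red points are the 8 members called higher and blue points the 11 called lower; Nrp2 lies at 4.37 and Sema6c at −2.30.

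In the inhibitor comparison, 0h vs DMSO, 6 of 48 members were called (2 higher, 4 lower), against 3.5% of all genes (2.22% higher, 1.28% lower). Efna2 and Plxna2 were the higher ones and Epha8, Epha1, Sema6a and Sema3e the lower ones, with values given above. With the block 14 were called, against 15% of all genes. Leaving out any 1 array of these groups leaves 1 in its group, and fewer members and fewer of all tested genes were then called. Between 8h and 24h 4 members were called, Epha1 and Epha8 higher and Sema4b and Sema5b lower, against 8.81% of all genes (5.22% higher, 3.59% lower), and with the block 12, against 22.9%. Leaving out 1 array of those groups could lower or raise the count, among the members and among all tested genes.

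The comparison of 24h with DMSO sets cells with both the inhibitor and 4OHT against vehicle. All 9 called members were higher at 24h (Epha1, Epha7, Epha8, Efna5, Nrp2, Plxnc1, Sema3f, Sema4g and Sema7a), against 11.3% of all genes (6.56% higher, 4.78% lower). Limma called 0 members lower, with 5 lower among the 14 at an unadjusted p under 0.05, a level that 25.5% of all genes passed. With the block 15 were called, 9 higher and 6 lower (Efna4, Efnb1, Epha4, Ephb4, Plxna2 and Sema6c), against 26% of all genes (12.5% higher, 13.5% lower). Leaving out any 1 array of the compared groups called fewer members here, while the count over all tested genes fell or rose with the array. For the 4h comparison no such fit called more members, and for 8h vs 0h the member count fell or rose. In both of these the count over all tested genes fell or rose as well. For 24h vs 0h every such fit called fewer members and fewer of all tested genes.

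Genes that act with these receptors moved in both directions at 24h vs 0h. Of 24 tested partners of Eph and ephrin signalling, 4 were higher and 4 lower, against a background of 23.7% of all genes called. With the block 4 were higher and 6 lower, against 39.5%. Their median change was −0.18, against −0.01 over all tested genes. Vav3, above background on 1 of 2 arrays at 0h, rose by 2.47 ± 0.36 (SE, limma adjusted p = 0.00106) and Rgs3, a regulator of G protein signalling, by 2.29 ± 0.55 (adjusted p = 0.0132). Ngef, an exchange factor bound by EphA receptors, rose by 1.34 ± 0.23 (adjusted p = 0.00233), and Tiam1, an exchange factor for Rac, fell by 1.28 (−1.28 ± 0.12, adjusted p = 0.000149). Of 31 tested partners of semaphorin and plexin signalling, 4 were higher and 9 lower, or 7 and 15 with the block, with a median of −0.27. The collapsin response mediator Dpysl4 changed by −3.41 ± 0.36 (adjusted p = 0.00023), the oxidoreductase Mical1 by −2.04 ± 0.29 (adjusted p = 0.000981) and Rnd3, a small GTPase, by −1.74 ± 0.25 (adjusted p = 0.00102). Rnd1, a plexin-binding GTPase, was higher at 4h (1.15 ± 0.17, adjusted p = 0.0111) and lower at 24h (−1.59 ± 0.17, adjusted p = 0.00023). Of 21 netrin, Slit and Robo genes 14 were tested, and 2 were higher and 4 lower, or 2 and 7 with the block, with a median of −0.39. Robo4 rose by 3.68 ± 0.45 (adjusted p = 0.000474), while Robo3, of the same family and below background at 0h, was at least 7.28-fold higher (adjusted p = 0.00208). Ntn3, a netrin, changed by −1.44 ± 0.32 (adjusted p = 0.00884), and Slit2, a ligand of Robo receptors, was at least 7.55-fold lower (adjusted p = 0.00604).

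Markers of other cell types also moved at the late times. Among all tested genes 6.74% were called at 8h (3.13% higher, 3.61% lower) and 23.7% at 24h (10.7% higher, 13% lower). Of 7 tested mesoderm markers 4 were higher at 8h, among them Mesp1 and Hand1, and the summed signal of the list was 1.66 to 2.57 at 8h, against 0.662 to 0.699 at 0h (in units of the array's 75th percentile). At 24h 2 of the 7 mesoderm markers were higher, with a median change of 0.27 over the list. Hand1 and Eomes stand on both the mesoderm and the trophoblast list. Of 7 tested trophoblast markers 4 were higher at 24h, among them Cdx2 and Krt7, with a summed signal of 13.3 to 18.6 at 24h, against 18.1 to 35.1 at 0h. Of 6 tested fibroblast markers Thy1 was the only one called at 8h and at 24h, higher at both, while the median change of the list was −0.31 at 8h and −0.20 at 24h. The fibroblast list summed to 13.2 to 19.6 at 8h and 13.7 to 14.5 at 24h, against 3.14 to 3.23 at 0h. Of 8 tested primitive endoderm markers none was called at 8h, and at 24h Gata6 and Pdgfra were higher and Lama1 lower (summed signal 11.4 to 13.0 at 24h, against 31.0 to 31.6 at 0h). Of 6 tested endothelial and blood markers Ptprc was higher at 8h and Tek lower at 24h (9.95 to 10.3 at 24h, against 9.76 to 10.7 at 0h). Of 6 tested neural markers 3 were lower at 24h (4.12 to 4.75, against 10.8 to 14.7 at 0h). Of 8 stem cell markers, Nanog, Esrrb and Zfp42 were lower and Utf1 higher at 24h. The part of these cell types in the changes of the members was not tested.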

How the data were processed

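Gene expression was measured in 16 samples on Agilent mouse arrays in 1 colour. Per the file headers, arrays were read with Agilent Feature Extraction 11.0.1.1, probe annotation on mm9, and the deposited spot intensity had been corrected for background by the authors' software; no further deposited processing is given in the sources used here. The labels name Cy5, while the files hold a green channel. The authors' value table holds the same intensity rounded to 3 significant digits, and 8 arrays carry another sample there than in the attached files (each matched 1 column at 100% of spots, tolerance 0.6%). Identities follow the value table, a choice made with the data seen.

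Outlier and control spots were left out, spots of a probe averaged, and signals taken as log2 minus each array's 75th percentile. Of 55681 probes, 27656 matched 1 gene by RefSeq accession (GRCm38.p6) and 28025 none, and the brightest probe stood for a gene. Differences were fitted with limma 3.58.1 (R 4.3.3) over all 16 arrays (8 residual degrees of freedom), and the F test spans the 6 times against 0h. The replicate numbers pair the samples: differences between replicates correlated over 0.1 in 28 of 28 pairs of groups (0.33 to 0.66). By the value table each number is 1 slide. The members and lists were chosen with earlier results of these data known. Genes named by rule are the members called in any comparison, with all arrays given for the 12 smallest F p, and from each partner list the 4 called with the smallest F p. Other members, such as Plxnb1, Ephb3, Epha5 and Sema4c, and the markers were named after their values were seen. The fit was tested on simulated data.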

Additional observations from a re-analysis of the deposited data

Results flagged for a closer look

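These results differ between consecutive times of 4OHT by a test of the difference itself in limma, all 4OHT groups having the same c-Raf fusion and inhibitor. Sema3e was higher at 8h than at 4h by 0.98 on the log2 scale. Epha1 was higher at 24h than at 8h by 1.89, and Epha8 by 3.11. Sema4b differed by −1.10 and Sema5b by −2.66 at 24h against 8h. At 8h vs 4h 2.08% of the tested members were called, against 1.12% of all genes, and at 24h vs 8h 8.33%, against 8.81%. Of these steps, those of Epha1, Epha8 and Sema5b held without any 1 array. The Sema3e step was lost without 4h replicate 1, 8h replicate 1 or 4h replicate 2, and under 5 of the 8 other settings.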

How the results depend on the processing

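Precision was limited by 2 arrays per group. With the replicate block, members called numbered 14 at 0h vs DMSO, 2 at 2h, 16 at 4h, 7 at 8h vs 4h, 12 at 24h vs 8h, 15 at 24h vs DMSO, 19 at 8h and 29 for the F test, and it ended none of the 52 called changes. Median centring, which shifted the median of all genes at 2h by −0.14, gave 2, 2, 0 and 4 members at 0h vs DMSO, 4h vs 0h, 8h vs 4h and 24h vs DMSO, and ended 21 of the 52 calls. Without the filter on dim probes there were 3, 2 and 0 at 0h vs DMSO, 4h vs 0h and 8h vs 4h. Normexp background and quantile normalization each gave 0 at 8h vs 4h. Fits of only the groups compared gave 0 at 0h vs DMSO, 4h, 8h, 8h vs 4h, 24h vs 8h and 24h vs DMSO, and 11 at 24h vs 0h, ending 41 calls. Leaving out 1 array gave 0 to 2 members at 0h vs DMSO, 0 to 4 at 4h, 1 to 14 at 8h, 8 to 17 at 24h vs 0h, 0 to 3 at 8h vs 4h, 3 to 6 at 24h vs 8h, 1 to 7 at 24h vs DMSO, 12 to 20 for the F test and 0 at 30m, 1h and 2h. Of the 52 called changes 13 held without any 1 array. The authors' value table ended none, the mean over a gene's probes 4, normexp 6, quantile 8 and no filter 14. With samples as attached to the scanner files the counts were 0 at 0h vs DMSO, 2 at 2h, 2 at 4h, 1 at 8h, 1 at 24h vs 0h, 0 at 8h vs 4h, 0 at 24h vs 8h, 1 at 24h vs DMSO and 2 for the F test. There 36 calls were lost and 16 changed sign: at 4h Efnb1 0.49, Nrp2 −0.59 and Sema4a 0.17; at 8h Efnb1 0.65, Plxnc1 −0.20, Sema6a −0.29 and Sema7a −0.14; at 24h Efna4 0.028, Efnb1 0.33, Efnb3 0.11, Epha4 0.33, Epha7 −0.12, Ephb4 0.24, Sema4a 0.13, Sema6c 0.048 and Sema7a −0.082. The cause of these moves was not tested, beyond the changed identity of the arrays itself.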
